A study of Mus musculus with 21 samples.

Results

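The imprinted Snrpn and Snhg14 transcription unit was examined as the minus strand of chr7:66480000-67370000 (build mm9), a window of 890001 nt. Every listed minus-strand position of that window was taken in all 6 peak lists of the study, without a cut on its value. The window itself was chosen with earlier results of these data known. The window held 19047 of the 1387615 listed positions, with 44449 cDNAs. The lists come from fractionation iCLIP of GFP-tagged SRSF3 or SRSF7 (SRSF3-GFP and SRSF7-GFP) in P19, an embryonal carcinoma cell line of the mouse. Living cells received ultraviolet light of 254 nm at 100 mJ/cm2 and were then split into chromatin, nucleoplasm and cytoplasm, with no other treatment named. Each SRSF3-GFP fraction was made from 4 replicates and each SRSF7-GFP fraction from 3, and the replicates of a group were pooled into 1 list before deposit. The labels do not say how the tagged proteins were expressed or whether a line was 1 clone.

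In iCLIP, ultraviolet light fixes a protein to the RNA it touches, and reverse transcription tends to stop beside the linked nucleotide, so each cDNA start marks a bound nucleotide. SRSF3 and SRSF7 are closely related SR proteins that bind exons and introns, act in splicing and 3' end processing, and move with mRNA to the cytoplasm. The Snrpn and Snhg14 unit is transcribed from the paternal chromosome only. Snurf and Snrpn share a messenger RNA that encodes the small SNURF protein and SmN, a core protein of spliceosomal small nuclear ribonucleoproteins. Alternative upstream exons begin far from the coding part. Downstream, the Snhg14 transcript carries tandem clusters of box C/D small nucleolar RNAs in its introns and runs antisense to Ube3a, the gene of a ubiquitin ligase. The human region is known for Prader-Willi and Angelman syndromes.

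No mm9 gene annotation was used, so regions are given by position and no exon, intron or UTR is assigned. The name Snrpn locus is used for chr7:67105899-67150421 (44523 nt), where positions of the 6 lists ran together without a gap over 10000 nt. The name is a label only. This stretch may reach beyond the Snrpn gene into Snhg14, and the part of each was not determined. The segment above it, up to 67370000, is upstream in the direction of transcription, and the segment below it is downstream. RefSeq (GRCm38.p6) gives Snurf a length of 22705 nt, Snrpn 467683 nt with its farthest upstream exons, and Snhg14 1177441 nt, so the window cannot hold the whole unit. Snurf is thus shorter than the stretch named Snrpn locus (44523 nt).

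RefSeq records 4 starts for Snrpn. Their sequences are shown because 3 of them resemble each other. The first start is shared with Snhg14 and the fourth with Snurf, and the fourth lies 444978 nt downstream of the first. The capitals mark a run of 19 bases, CCTGCAGCCTGGCAAACAT, found by comparing the starts and then searched on the strand given, within the 250 bases before each start.
Snrpn start 1: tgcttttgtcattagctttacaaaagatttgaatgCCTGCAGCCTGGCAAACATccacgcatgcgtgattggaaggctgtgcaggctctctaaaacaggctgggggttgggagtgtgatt
Snrpn start 2: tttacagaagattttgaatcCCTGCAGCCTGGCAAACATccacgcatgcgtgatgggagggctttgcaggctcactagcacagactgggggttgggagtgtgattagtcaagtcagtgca
Snrpn start 3: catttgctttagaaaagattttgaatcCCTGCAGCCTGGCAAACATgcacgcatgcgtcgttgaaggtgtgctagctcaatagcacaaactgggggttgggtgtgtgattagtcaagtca
Snrpn start 4: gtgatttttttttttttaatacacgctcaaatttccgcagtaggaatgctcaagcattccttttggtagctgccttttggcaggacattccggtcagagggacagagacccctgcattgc
Each line gives 120 bases, 5′ to 3′ in the direction of transcription. The run stands in 3 of 32817 RefSeq promoter windows (0.00914%), which are the 3 upstream starts. Over the 250 bases before the start, identity among the 3 upstream starts was 76.7% to 79.8%, and identity of each with the fourth start was 45.5% to 50.2%. How the authors placed reads from similar sequences is not stated in the labels, and no listed position was shown to lie in these. Sequence at the bound positions themselves was not analysed here, because no mm9 genome was used.

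Both proteins were listed on the unit in every fraction, and most listed cDNAs lay in the stretch named Snrpn locus here. In SRSF3-GFP chromatin, nucleoplasm and cytoplasm the window held 24042, 3950 and 1893 cDNAs. In the same fractions of SRSF7-GFP it held 2609, 6555 and 5400. Where 3 values follow each other below, they keep this order of fractions. The lists they came from held between 248498 cDNAs (SRSF7 chromatin) and 1768665 (SRSF3 chromatin), so levels are given as shares of all listed cDNAs of a list. Intervals are 95% Clopper-Pearson for shares and 95% conditional exact binomial for ratios of shares. They cover counting error only, since pooled lists leave no spread between replicates and allow no p-value.

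The share of the window was highest in SRSF7 nucleoplasm and lowest in SRSF3 cytoplasm. For SRSF3, chromatin gave 1.36% (1.34 to 1.38), nucleoplasm 1.25% (1.21 to 1.29) and cytoplasm 0.736% (0.704 to 0.770). For SRSF7, chromatin gave 1.05% (1.01 to 1.09), nucleoplasm 2.38% (2.33 to 2.44) and cytoplasm 1.47% (1.43 to 1.51). On this measure the order differed between the proteins, with chromatin at the top for SRSF3 and at the bottom for SRSF7. The place of SRSF3 chromatin did not hold with mitochondrial cDNAs and those of the 10 highest loci left out, when its window share fell below that of nucleoplasm (log2 chromatin over nucleoplasm -0.29). The Snrpn locus held 99.5%, 98.3% and 98.5% of the window's cDNAs in SRSF3 chromatin, nucleoplasm and cytoplasm, and 85.9%, 90.8% and 97.3% in SRSF7. The bounds of this locus follow the listed positions themselves, so its high share was in part set by its definition. Among all loci of a list it ranked 3, 6 and 12 by cDNAs in the SRSF3 lists and 10, 4 and 7 in the SRSF7 lists.

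**Figure D1:**
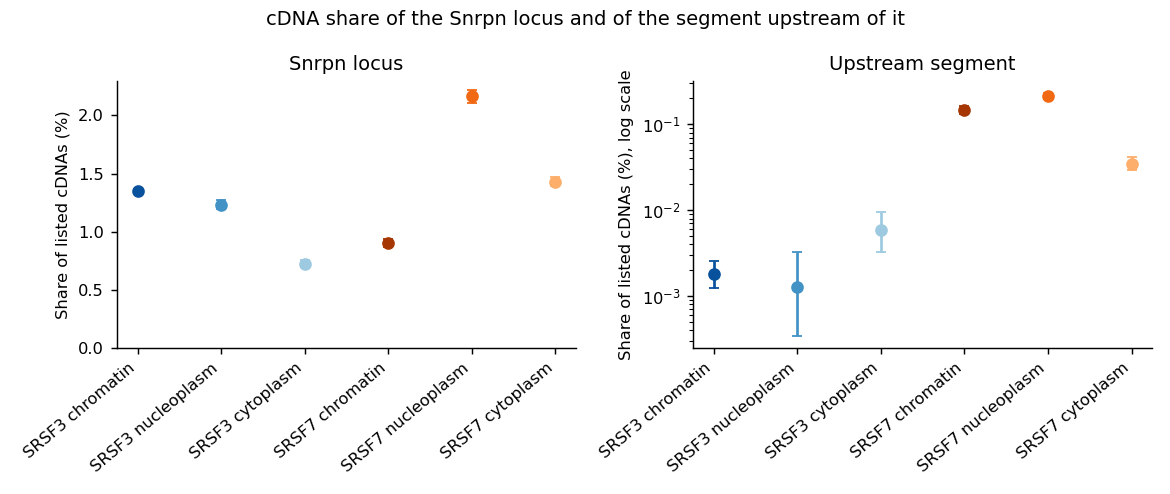
Share of all listed cDNAs (%) in the Snrpn locus (left, linear axis) and in the segment upstream of it (right, log axis), 1 point per pooled list, with bars for the 95% Clopper-Pearson interval, which covers counting error only. On the left SRSF7 nucleoplasm is highest (2.16%) and SRSF3 cytoplasm lowest (0.725%). On the right all 3 SRSF7 lists lie above all 3 SRSF3 lists.

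Within SRSF3, the Snrpn locus share in chromatin was 1.87-fold that in cytoplasm (1.78 to 1.96) and 1.10-fold that in nucleoplasm (1.06 to 1.14). Nucleoplasm exceeded cytoplasm 1.70-fold (1.61 to 1.79). Within SRSF7 the cytoplasm exceeded chromatin 1.59-fold (1.51 to 1.67), and nucleoplasm exceeded cytoplasm 1.51-fold (1.46 to 1.57). Of these 6 fraction ratios, only the 2.40-fold excess of SRSF7 nucleoplasm over chromatin (2.29 to 2.52) lay wholly beyond 2-fold by its interval. It lost that call with positions counted, and with mitochondrial cDNAs and those of the 10 highest loci left out. It kept the call with positions of at least 3 cDNAs (log2 of chromatin over nucleoplasm -2.37) and of at least 6 (-3.27). That direction and threshold were met by 21.5% of the 915 loci compared across the genome for this pair. Between the proteins, the locus share was higher for SRSF3 in chromatin (log2 0.59, 0.52 to 0.65). It was higher for SRSF7 by 1.76-fold in nucleoplasm (1.69 to 1.83) and by 1.97-fold in cytoplasm (1.87 to 2.08).

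The other 8 ratios of the Snrpn locus were not beyond 2-fold by their intervals, and for each pair the share of all loci that were is given here. In SRSF3 chromatin over cytoplasm 20.8% of loci were higher and 38% lower, in chromatin over nucleoplasm 17.2% and 31.6%, and in nucleoplasm over cytoplasm 16.8% and 8.36%. In SRSF7 these were 22.3% and 16.8% for chromatin over cytoplasm, and 22.6% and 16.6% for nucleoplasm over cytoplasm, while 14.2% were higher in chromatin than in nucleoplasm. For SRSF3 over SRSF7, chromatin had 21.4% higher and 17.2% lower, nucleoplasm 12.7% and 18.3%, and cytoplasm 14% and 20.7%.

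Most of these differences depended on whether cDNAs or positions were counted. In the window a listed position held on average 3.28 cDNAs in SRSF3 chromatin and between 1.48 and 1.88 in the other 5 lists. Over whole lists SRSF3 chromatin had the lowest mean, 2.03, and SRSF3 cytoplasm the highest, 4.38. With each listed position counted as 1, whatever its cDNAs, the log2 ratio of the SRSF3 locus share in chromatin over cytoplasm went from 0.90 to -1.29, that of chromatin over nucleoplasm from 0.14 to -1.28, and that of SRSF3 over SRSF7 in chromatin from 0.59 to -1.20. The SRSF7 ratio of chromatin over nucleoplasm kept its direction but was no longer beyond 2-fold, at -0.27. The differences between the other lists shrank or vanished on this count. SRSF3 nucleoplasm over cytoplasm went from 0.76 to -0.01 (-0.11 to 0.09), SRSF7 chromatin over cytoplasm from -0.67 to -0.06 (-0.16 to 0.03) and SRSF7 nucleoplasm over cytoplasm from 0.60 to 0.21 (0.14 to 0.29). SRSF3 over SRSF7 went from -0.82 to -0.19 (-0.27 to -0.11) in nucleoplasm and from -0.98 to 0.03 (-0.07 to 0.13) in cytoplasm. With mitochondrial cDNAs and those of the 10 highest loci left out, SRSF3 chromatin over cytoplasm fell to 1.15-fold (log2 0.20, 0.13 to 0.27) and chromatin over nucleoplasm turned to log2 -0.27 (-0.32 to -0.22). SRSF7 chromatin over nucleoplasm was then -1.002 (-1.07 to -0.93). With only positions of at least 3 cDNAs, the SRSF3 chromatin over cytoplasm ratio was 2.86 and that of SRSF7 was -1.45.

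Within the Snrpn locus the cDNAs gathered in a few dense stretches, which the 6 lists had in common. Positions were joined into blocks at gaps of up to 200 nt, a distance chosen after the data were seen, which gave 33 blocks. The largest block was chr7:67117943-67124448 (6506 nt), which begins 25973 nt from the upper end of the locus. That distance is longer than Snurf in RefSeq (22705 nt). Whether the block lies in Snrpn or beyond it, in the Snhg14 part, was not determined. SRSF3 chromatin had 55.6% of its locus cDNAs there (54.9 to 56.2), nucleoplasm 70.3% (68.9 to 71.8) and cytoplasm 79.7% (77.8 to 81.5). SRSF7 chromatin had 68.9% there (67.0 to 70.9), nucleoplasm 64.3% (63.1 to 65.5) and cytoplasm 71.4% (70.2 to 72.6). This block thus took more than any other block in all 6 lists. Scaled to length and depth it held 116, 133 and 88.8 cDNAs per kb per 100000 listed cDNAs in SRSF3 chromatin, nucleoplasm and cytoplasm, and 95.6, 214 and 157 in SRSF7. The listed positions covered 56.6% of its nucleotides in SRSF3 chromatin, and between 14.2% (SRSF3 cytoplasm) and 30.05% (SRSF7 cytoplasm) in the other lists.

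**Figure D2:**
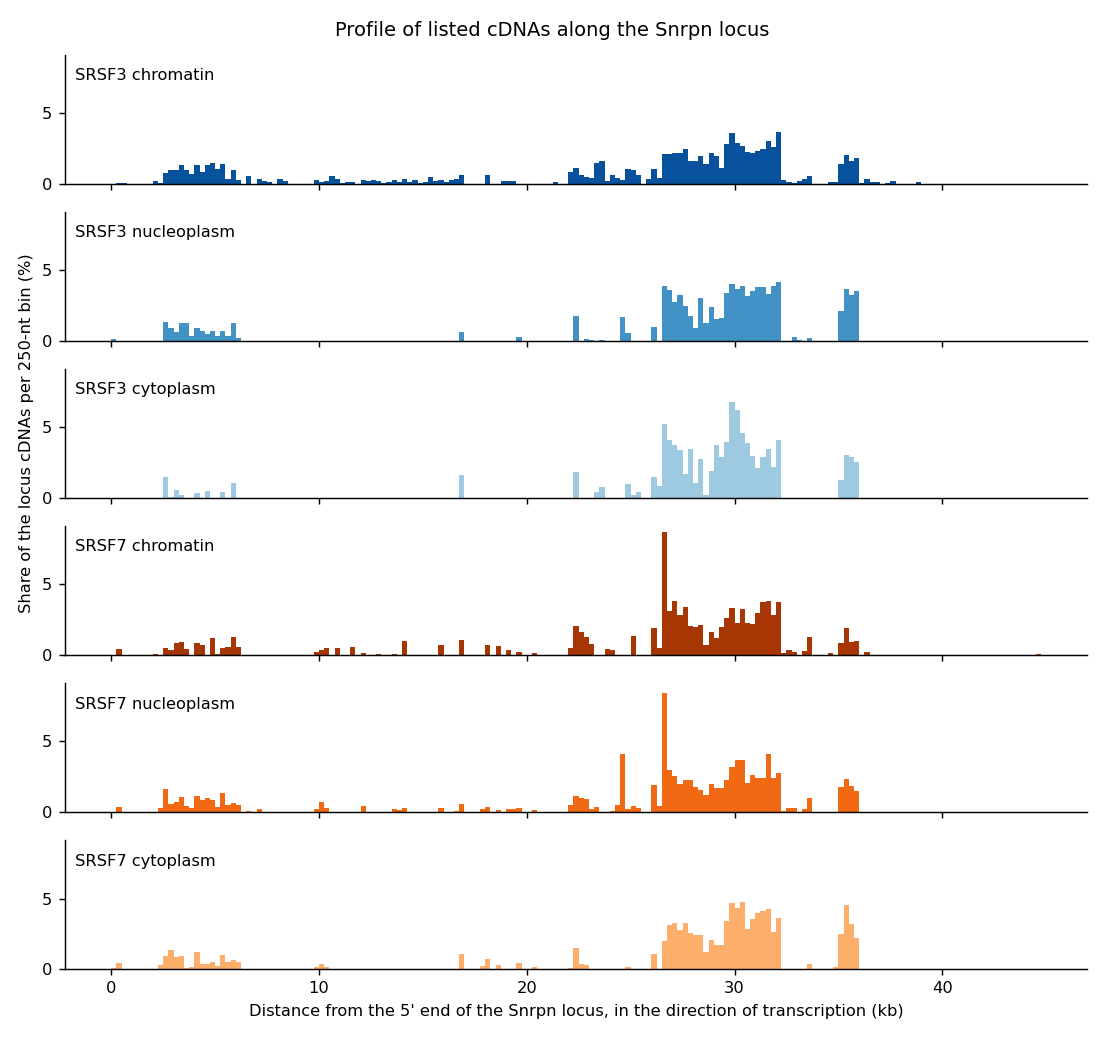
Share of the Snrpn locus cDNAs (%) in each 250-nt bin, against the distance in kb from the upper end of the locus in the direction of transcription, 1 panel per pooled list on a common axis. The dense stretch from about 26.0 to 32.5 kb is present in all 6 panels, and SRSF3 chromatin fills the most bins (119 of 179).

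The block nearest the upper end of the locus among the large ones was chr7:67144204-67147972 (3769 nt). SRSF3 chromatin had 14.6% of its locus cDNAs in it (14.2 to 15.1), nucleoplasm 11.4% (10.4 to 12.4) and cytoplasm 4.51% (3.61 to 5.55). SRSF7 chromatin had 8.52% (7.40 to 9.76), nucleoplasm 11.8% (11.0 to 12.7) and cytoplasm 9.61% (8.83 to 10.4). SRSF3 cytoplasm was the lowest of the 6 lists there. The block nearest the lower end among the large ones, chr7:67114495-67115444 (950 nt), showed another order. SRSF3 chromatin had 6.97% in it (6.65 to 7.30), nucleoplasm 12.6% (11.6 to 13.7) and cytoplasm 9.71% (8.40 to 11.1). SRSF7 chromatin had 4.60% (3.77 to 5.55), nucleoplasm 7.42% (6.77 to 8.12) and cytoplasm 12.5% (11.6 to 13.4). The SRSF7 shares of this lower block were apart from each other beyond counting error, with chromatin lowest and cytoplasm highest. Per kb and 100000 listed cDNAs this short block was denser than the largest one in SRSF3 nucleoplasm (164) and SRSF7 cytoplasm (188), and less dense in SRSF3 chromatin (99.2) and SRSF7 chromatin (43.6).

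The other large blocks each took under 7% of the locus. Block chr7:67126740-67128348 held 6.66% in SRSF3 chromatin and 6.16% in SRSF7 chromatin, against 1.93% to 4.05% in the other 4 lists. Block chr7:67125020-67126442 held 5.56% in SRSF7 nucleoplasm, 4.15% in SRSF3 chromatin and 0.0952% (5 cDNAs) in SRSF7 cytoplasm. As a share of locus cDNAs, chromatin was thus the highest fraction of each protein in the first of these, and SRSF7 nucleoplasm the highest list in the second. Per kb and 100000 listed cDNAs, SRSF3 chromatin (56.0) stayed the highest SRSF3 fraction in the first. For SRSF7, nucleoplasm (54.5) then exceeded chromatin (34.5). Block chr7:67133510-67134606 ran from 0.618% to 1.74%. The remaining 27 blocks together held 10.45%, 0.850% and 0% of the locus cDNAs in SRSF3 chromatin, nucleoplasm and cytoplasm. In SRSF7 they held 7.99%, 5.96% and 3.10%. The thin signal between the large blocks was therefore listed least in cytoplasm for both proteins. SRSF3 chromatin, the list with the most cDNAs, was listed in 29 of the 33 blocks, and SRSF3 cytoplasm in 6. A weakly bound position passes the authors' threshold more easily in a deeper list, and the part of depth in these counts was not tested.

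**Figure D3:**
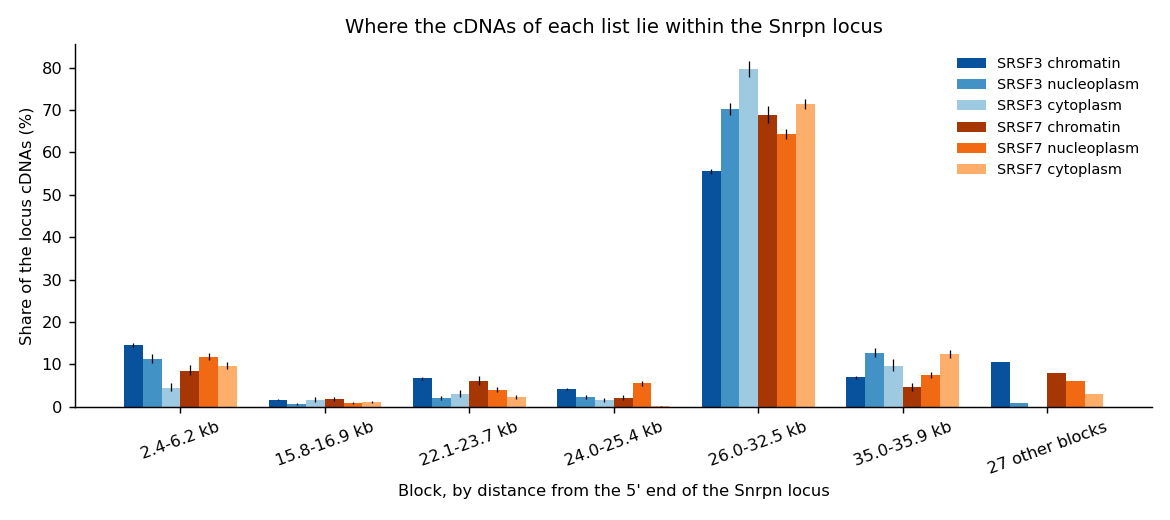
Share of the Snrpn locus cDNAs (%) in its 6 largest blocks and in the 27 others together, against the blocks' distance in kb from the upper end of the locus, 1 bar per pooled list. Thin lines are 95% Clopper-Pearson intervals (counting error only) and are not drawn for the 27 others. The block at 26.0 to 32.5 kb holds 55.6% to 79.7% in all 6 lists.

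The profile over 179 bins of 250 nt was alike in all 6 lists. Pearson's r between lists ran from 0.80 to 0.95 and Spearman's rho from 0.71 to 0.87. This describes these lists over bins of 1 locus that share gene and base composition. Bins empty in every list, such as those centred from 39.125 to 44.375 kb, were kept in, and their part in these values was not tested. The highest r was between SRSF3 nucleoplasm and SRSF7 cytoplasm, 0.95, and the lowest between SRSF7 nucleoplasm and SRSF7 cytoplasm, 0.80. The order of pairs depended on the measure, since rho was 0.87 for the first pair and 0.85 for the second. SRSF3 chromatin filled 119 of the 179 bins, SRSF7 nucleoplasm 85, SRSF7 chromatin 76, SRSF7 cytoplasm 62, SRSF3 nucleoplasm 55 and SRSF3 cytoplasm 44.

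The tallest nucleotides lay near the upper end of the main block. Position 67123739 held 57, 30 and 14 cDNAs in SRSF3 chromatin, nucleoplasm and cytoplasm, and 44, 111 and 34 in SRSF7. It was the tallest of the window in SRSF3 nucleoplasm and in all 3 SRSF7 lists. Its neighbour 67123740 was the tallest in SRSF3 cytoplasm, with 15 cDNAs. In SRSF3 chromatin the tallest was 67118471, toward the lower end of the block, with 78 cDNAs. That nucleotide held 19 and 13 cDNAs in SRSF3 nucleoplasm and cytoplasm, and 1, 11 and 7 in the SRSF7 lists. The tallest nucleotide of a list held between 0.324% (SRSF3 chromatin) and 1.69% (SRSF7 nucleoplasm) of its window cDNAs. The positions that together held 50 percent of them were 17.5% of the listed window positions in SRSF3 chromatin and 21.7% to 26.4% in the other 5 lists.

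Positions were also joined into clusters at gaps of up to 30 nt over all 6 lists, which gave 253 clusters in the window. The tallest nucleotide belonged to chr7:67123724-67123809, a cluster of 86 nt with 422, 151 and 90 cDNAs in SRSF3 chromatin, nucleoplasm and cytoplasm and 196, 462 and 102 in SRSF7. In each list 30.1% to 56.9% of these lay on the 3 nucleotides 67123739 to 67123741. The cluster had a lower part, 67123724 to 67123755, and an upper part, 67123775 to 67123809, which lies upstream in the RNA. The upper part held 95, 62 and 16 cDNAs in the SRSF3 lists, or 22.5%, 41.1% and 17.8% of the cluster. In SRSF7 chromatin it held 29 cDNAs, or 14.8%, and it was not listed in SRSF7 nucleoplasm or cytoplasm. The lower part was shared by all 6 lists, and the upper part by 4. SRSF7 nucleoplasm had a further 30 cDNAs on position 67123755, where no other list held any.

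**Figure D4:**
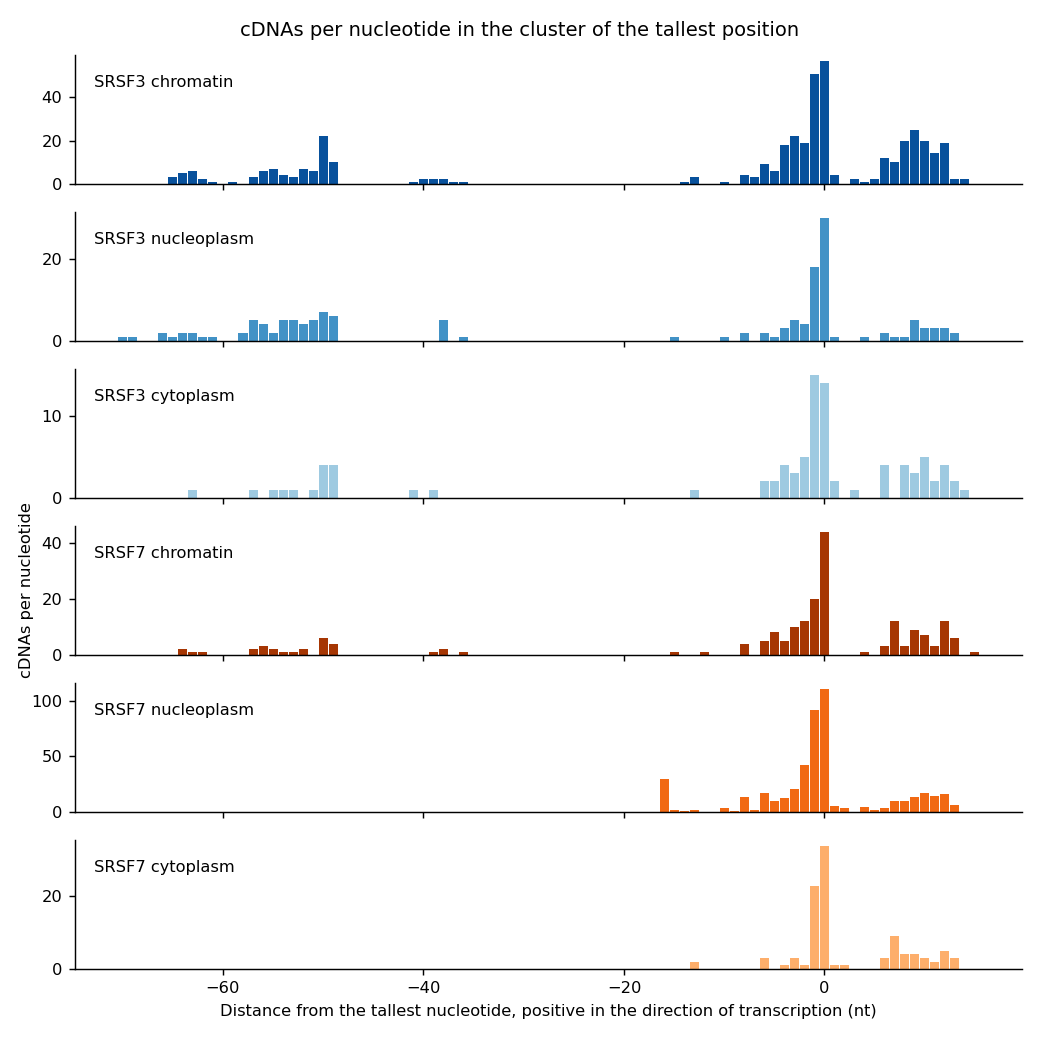
cDNAs per nucleotide in the 86-nt cluster of the tallest position, against the distance in nt from position 67123739, positive in the direction of transcription, 1 panel per pooled list with its own vertical scale. The main peak stands at 0 and -1 in all 6 panels, and the group of bars from -70 to -36 is absent from SRSF7 nucleoplasm and SRSF7 cytoplasm.

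Among the clusters compared in chromatin, this one had the lowest SRSF3 share against SRSF7. Clusters were compared where both lists together held at least 50 cDNAs and each at least 10, and were counted as higher or lower when the whole interval of the share ratio lay beyond 2-fold. Of 29 window clusters compared in chromatin, chr7:67123724-67123809 alone was lower in SRSF3, by 3.31-fold (log2 -1.72, -1.97 to -1.47), where 31.5% of the 1071 clusters of the series were. None was higher in SRSF3, against 1.96% in the series. In nucleoplasm 3 of 18 window clusters were lower in SRSF3, against 13.6%, and none was higher, against 18.6%. The same cluster was among them at 3.51-fold (log2 -1.81, -2.09 to -1.54). In cytoplasm its SRSF3 share was 1.26-fold the SRSF7 share, with an interval that spans 0 on the log2 scale (-0.09 to 0.76). Within SRSF7 its chromatin share was 2.84-fold the cytoplasmic share (log2 1.51, 1.15 to 1.87) and its nucleoplasmic share 6.05-fold (log2 2.60, 2.28 to 2.92). Within SRSF3 it was the lowest of 12 clusters in chromatin over cytoplasm, at 0.682 (log2 -0.55, -0.88 to -0.21).

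The other nucleoplasm clusters lower in SRSF3 than in SRSF7 were chr7:67125795-67125825 (31 nt) and chr7:67145527-67146045 (519 nt). The first held 28 cDNAs in SRSF3 chromatin, 66 in SRSF3 nucleoplasm and 244 in SRSF7 nucleoplasm, and was not listed in the other 3 lists. It was thus listed in 3 of the 4 nuclear lists and in neither cytoplasmic list, and was 4.24-fold higher in SRSF7 than in SRSF3 nucleoplasm (log2 of SRSF3 over SRSF7 -2.08, -2.50 to -1.69). Of 22 clusters compared between SRSF3 chromatin and nucleoplasm it was the only one lower in chromatin, 13.2-fold (log2 -3.72, -4.42 to -3.07), where 38.1% of the series' clusters were. The second held 667, 45 and 9 cDNAs in the SRSF3 lists and 41, 113 and 46 in the SRSF7 lists, and was 2.88-fold higher in SRSF7 nucleoplasm (log2 of SRSF3 over SRSF7 -1.53, -2.06 to -1.02).

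**Figure D5:**
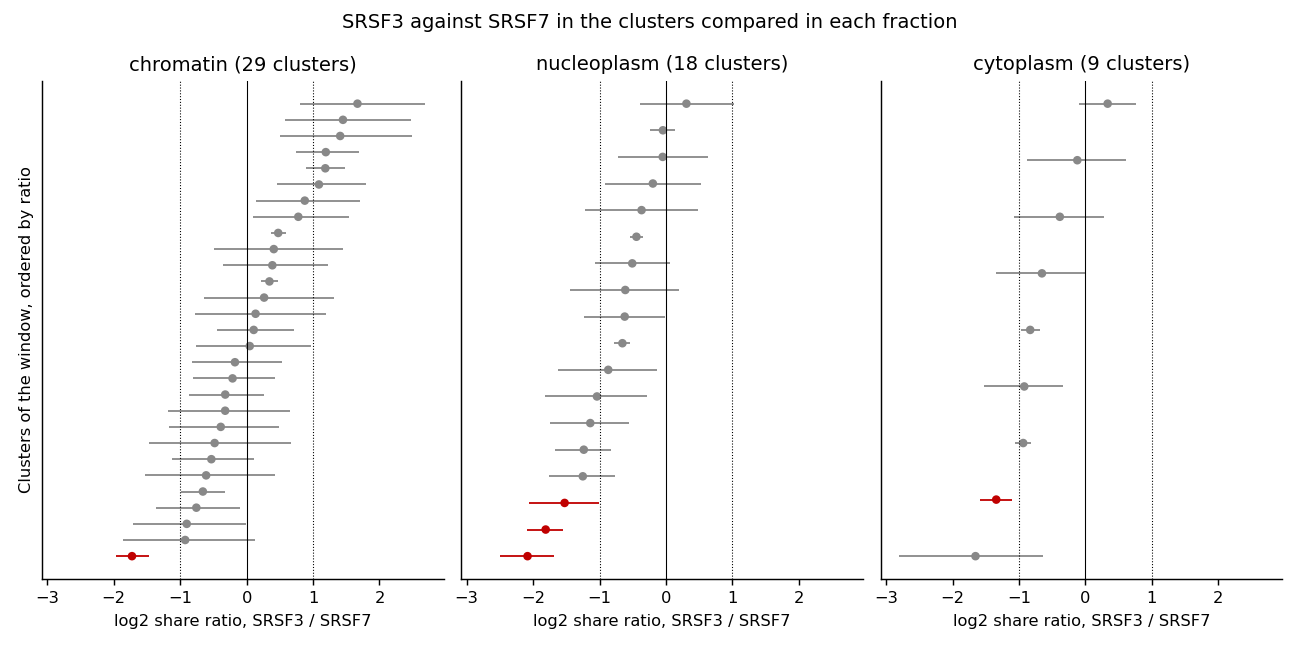
log2 ratio of the share of listed cDNAs in SRSF3 over that in SRSF7 for each window cluster compared in chromatin (29), nucleoplasm (18) and cytoplasm (9), ordered by ratio. Lines are 95% conditional exact binomial intervals (counting error only), dotted lines mark 2-fold, and red marks intervals wholly beyond it. The 5 red points, 1 in chromatin, 3 in nucleoplasm and 1 in cytoplasm, all lie on the SRSF7 side.

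In chromatin the clusters with the highest SRSF3 over SRSF7 ratios did not pass the 2-fold rule. They were chr7:67144917-67145006 at 3.18-fold (249 and 11 cDNAs), chr7:67128144-67128348 at 2.73-fold (214 and 11) and chr7:67147741-67147972 at 2.66-fold (189 and 10). Next to chr7:67123724-67123809 at the other end stood chr7:67136199-67136225, 1.90-fold higher in SRSF7 (45 and 12 cDNAs; log2 -0.92, -1.87 to 0.13). After it came chr7:67134469-67134511 at 1.87-fold (61 and 16; log2 -0.90, -1.71 to -0.007). Neither passed the 2-fold rule, and the interval of chr7:67136199-67136225 spans 0. In nucleoplasm the highest ratios were near 1, with 1.24 for chr7:67146274-67146530, 0.968 for chr7:67114495-67115444 and 0.966 for chr7:67146620-67146847. In cytoplasm 1 of 9 clusters was lower in SRSF3, against 6.89% in the series, and none was higher, against 20.2%. It was chr7:67114495-67115444, with 181 cDNAs in SRSF3 and 656 in SRSF7, 2.54-fold (log2 -1.34, -1.59 to -1.10). A smaller cluster, chr7:67147248-67147381, was 3.15-fold higher in SRSF7 on 10 and 45 cDNAs, with an interval that reached under 2-fold (log2 -1.66, -2.81 to -0.65). The largest cluster of all, chr7:67118174-67120899 (2726 nt), held 7306, 1584 and 805 cDNAs in the SRSF3 lists and 738, 1880 and 2202 in the SRSF7 lists. Its neighbour chr7:67120963-67123691 held 5014, 957 and 547, and 555, 1315 and 1391. In cytoplasm the first of this pair was 1.91-fold higher in SRSF7 (log2 -0.94, -1.06 to -0.82). As shares of the list the first had 0.413%, 0.502% and 0.313% in SRSF3 and 0.297%, 0.684% and 0.5995% in SRSF7. The second had 0.283%, 0.303% and 0.213%, and 0.223%, 0.478% and 0.379%. Both thus had chromatin lowest for SRSF7, as the whole locus did, and nucleoplasm highest for either protein.

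Between fractions of SRSF3 few clusters of the locus stood apart from the rest. Of 12 compared in chromatin over cytoplasm, 1 was higher in chromatin, against 9.32% in the series, and none lower, against 53.7%. The higher one was chr7:67126807-67126891 (85 nt), with 373 and 14 cDNAs, 3.87-fold (log2 1.95, 1.19 to 2.84). The median log2 ratio over these 12 was 0.41, and over the 901 clusters of the series it was -1.79. Next in rank were chr7:67147248-67147381 at 3.37-fold (232 and 10 cDNAs) and chr7:67127558-67128111 at 1.81-fold (424 and 34), neither beyond 2-fold by its interval. The clusters chr7:67124187-67124235 and chr7:67133510-67133631 stood at 0.894 and 0.703. In nucleoplasm over cytoplasm 8 clusters were compared and none was beyond 2-fold, where 11.3% of the series' clusters were higher and 13.4% lower. The median log2 ratio was 0.55 over the 8 and 0.06 over the series.

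Within SRSF7, clusters of the locus were called in both directions. Of 14 compared in chromatin over cytoplasm, chr7:67123724-67123809 was the 1 higher, against 30.2% in the series. The 2 lower, against 13.8%, were chr7:67114495-67115444 at 4.31-fold (103 and 656 cDNAs; log2 -2.11, -2.42 to -1.81) and chr7:67147741-67147972 at 4.26-fold (10 and 63; log2 -2.09, -3.22 to -1.12). These lay toward opposite ends of the locus. The cluster chr7:67144917-67145006 was 2.64-fold lower in chromatin on 11 and 43 cDNAs, not beyond 2-fold by its interval, and chr7:67127558-67128111 was 1.51-fold higher on 94 and 92. Against nucleoplasm, 4 of 21 were lower in chromatin (15.3% in the series) and none higher (21.2%). They were chr7:67147741-67147972 at 9.76-fold, chr7:67140300-67140440 at 4.52-fold, chr7:67114495-67115444 at 3.88-fold and the 2726-nt cluster at 2.30-fold. Of 23 compared in nucleoplasm over cytoplasm, 5 were higher (22.2% in the series) and none lower (18.7%). Besides the cluster of the tallest position these were chr7:67364395-67364754 at 8.42-fold, chr7:67116784-67116924 at 4.15-fold, chr7:67140300-67140440 at 3.34-fold and chr7:67145527-67146045 at 3.28-fold. The share of window clusters called in the higher direction was therefore near that of the series for this pair.

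The segment upstream of the Snrpn locus was listed mainly for SRSF7, and there mainly in the nuclear fractions. It held 32, 4 and 15 cDNAs in SRSF3 chromatin, nucleoplasm and cytoplasm, and 368, 584 and 128 in SRSF7. All but 3 to 7 of the SRSF7 cDNAs of each list lay in chr7:67331034-67365292 (34259 nt). Whether this stretch belongs to the transcripts that begin at the starts printed above cannot be told without an mm9 annotation. In it SRSF3 had 16, 4 and 15 cDNAs and SRSF7 365, 577 and 125. It took 13.99%, 8.80% and 2.31% of the window's cDNAs in SRSF7 chromatin, nucleoplasm and cytoplasm, and 0.0666%, 0.101% and 0.792% in SRSF3.

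As a share of the list, this upstream stretch was 162-fold higher in SRSF7 than in SRSF3 in chromatin (98.6 to 287), a direction and threshold met by 17.2% of the 1358 loci compared. In cytoplasm it was 5.83-fold higher in SRSF7 (3.40 to 10.7), with 20.7% of 866 loci so called. In nucleoplasm SRSF3 held 4 cDNAs, under the minimum for a call, and the ratio was 165-fold with an interval from 64.3 to 609. Within SRSF7 the share in chromatin was 4.32-fold that in cytoplasm (3.51 to 5.33; 22.3% of 852 loci so called). In nucleoplasm it was 6.16-fold that in cytoplasm (5.07 to 7.54; 22.6% of 1248 loci). Chromatin was 1.43-fold lower than nucleoplasm (1.25 to 1.63). For SRSF7 both nuclear fractions thus stood above cytoplasm, whereas in the Snrpn locus chromatin was lowest; this difference was not tested. For the whole upstream segment, the SRSF7 chromatin over cytoplasm ratio was no longer beyond 2-fold with positions of at least 3 cDNAs (log2 1.06 in place of 2.09), nor was the cytoplasmic SRSF3 over SRSF7 ratio with positions counted (log2 -1.61 in place of -2.58). The track names of the SRSF7 lists carry a peak-calling term that the SRSF3 names lack, and its part in this difference was not tested.

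The upstream cDNAs were thinly spread. Between 76.8% and 81.0% of the SRSF7 positions there held 1 cDNA, and the tallest held 5, 8 and 6 in chromatin, nucleoplasm and cytoplasm. The densest part was the uppermost 898 nt, chr7:67364395-67365292, with 98, 199 and 85 SRSF7 cDNAs and 3, 0 and 0 SRSF3 cDNAs. It held its own largest cluster, chr7:67364988-67365292 (305 nt), with 59, 98 and 65 SRSF7 cDNAs, whose chromatin over cytoplasm ratio of 1.34 was not beyond counting error (log2 0.42, -0.11 to 0.95). Lower in the same part, chr7:67364395-67364754 held 30, 82 and 13. Above the window, the next 287440 nt of the minus strand held 51, 3 and 3 cDNAs for SRSF3 and 19, 22 and 6 for SRSF7. The SRSF7 signal thus fell away at the upper end. That of SRSF3 chromatin did not, with 32 cDNAs in the 219579 nt of the upstream segment.

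The downstream segment, which runs on toward Ube3a, was nearly empty in these lists. It need not hold all of the Snhg14 part, since the stretch named Snrpn locus was not divided by gene. How reads from the tandem small nucleolar RNA clusters were placed is not stated in the labels. The 625899 nt of the downstream segment held 77, 64 and 14 cDNAs for SRSF3 and 0, 17 and 19 for SRSF7. Most of these lay in chr7:66636245-66640305 (4061 nt), with 57, 60 and 8 SRSF3 cDNAs and 0, 17 and 13 SRSF7 cDNAs. That locus was 5.90-fold lower in SRSF3 chromatin than in nucleoplasm (log2 -2.56, -3.11 to -2.01), as were 31.6% of 1778 loci compared. In nucleoplasm SRSF3 exceeded SRSF7 there 3.08-fold, which was not beyond 2-fold by its interval (log2 1.62, 0.82 to 2.49). An unlisted position had not passed the authors' threshold and is not shown to be unbound.

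The series is concerned with binding that persists from chromatin to cytoplasm. In the window 19 of 165 SRSF3 clusters were listed in all 3 SRSF3 fractions (11.5%, 7.08 to 17.4), against 2.10% over the series. For SRSF7 these were 41 of 164 (95% interval of the share 18.6% to 32.3%), against 4.66%. All 6 lists met in 14 of 253 clusters (5.53%, 3.06 to 9.11), against 0.618%. The 14 clusters held 71.4%, 90.5% and 94.0% of the window's cDNAs in the SRSF3 lists and 71.8%, 73.0% and 90.3% in the SRSF7 lists. A small number of clusters thus carried most of the signal in every list. They included long joined stretches of 2726, 2729 and 950 nt, with 7306, 5014 and 1667 cDNAs in SRSF3 chromatin. Of the 165 SRSF3 clusters, 114 were listed in chromatin alone, 6 in nucleoplasm alone and 5 in cytoplasm alone. Over the series these were 137368, 8911 and 5104 of 163428. For SRSF7 they were 27, 44 and 6 of 164, against 11748, 20727 and 22721 of 66873 over the series. Clusters with many cDNAs are listed more easily in several lists, and window and series clusters were not matched for height or length.

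At the scale of nucleotides the overlap between lists depended on the distance allowed and on the density of the lists. Of 1224 SRSF3 cytoplasm positions in the window, 97.7% lay within 5 nt of an SRSF3 chromatin position (96.7 to 98.5), against 55.4% over the series. Of 2962 SRSF7 cytoplasm positions, 69.3% lay near an SRSF7 chromatin position (67.6 to 71.0), against 19.8%. On the same nucleotide these window shares were 83.7% for SRSF3 and 26.0% for SRSF7, and with at least 3 cDNAs in both lists 96.3% and 31.4%. The density of the second list sets much of such a share. In the main block 87.8% of nucleotides lay within 5 nt of an SRSF3 chromatin position and 59.7% within 5 nt of an SRSF7 chromatin position. The shares of cytoplasmic positions found near them in that block were 99.0% for SRSF3 and 78.9% for SRSF7. Both were above the share of all nucleotides of the block.

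Between the proteins, 77.5% of SRSF7 chromatin positions lay within 5 nt of an SRSF3 chromatin position (75.5 to 79.5), against 51.3% over the series. In nucleoplasm this was 63.7% (62.1 to 65.3) against 25.9%, and in cytoplasm 61.2% (59.5 to 63.0) against 21.9%. On the same nucleotide the window shares fell to 64.1%, 31.6% and 22.7%. With at least 3 cDNAs in both lists they were 90.3%, 51.9% and 28.9%. In the main block, these shares were 99.6%, 89.0% and 74.7%, where 87.8%, 72.3% and 56.2% of all nucleotides lay that close to an SRSF3 position of the same fraction. Of the 9082 nucleotides of the Snrpn locus listed at all, 4590 were in 1 list and 173 in all 6. SRSF3 chromatin listed 7265 of them and each other list between 1200 and 3029, so list size bears on these counts. The same count over the series was not made.

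On the opposite strand of the same window the lists held 822, 173 and 71 cDNAs for SRSF3 and 63, 132 and 185 for SRSF7. These made 2.01% to 4.38% of the minus-strand cDNAs of the same list.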

How the data were processed

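The deposited lists, 1 per protein and fraction, give 1-nt positions with a signed whole number, here the cDNA count, with a negative sign read as the minus strand. The sign's meaning was inferred from the values. Per the file headers, the authors pooled 4 (SRSF3) or 3 (SRSF7) replicates and kept positions below a false discovery rate of 0.05 against 100 permutations with a 15 nt neighbourhood, regions treated separately. In the SRSF7 lists the track name adds regionAsOne, against the description beside it. The build is mm9, per the file headers. The sources used here do not name the aligner or how duplicates were removed. Deposited counts are whole numbers and show no scaling to depth. Samples without a tagged protein were not analysed here.

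Loci joined positions of all 6 lists at gaps of up to 10000 nt, clusters at 30 nt and blocks at 200 nt. Comparisons needed at least 50 cDNAs together and 10 in each list, and were run over the whole lists. A locus of 16 cDNAs crossing the lower window edge was left out of locus comparisons. Named regions are loci of the window with at least 50 cDNAs, the 8 clusters with the highest mean share, the 3 clusters at each end of the chromatin over cytoplasm and SRSF3 over SRSF7 ratios, and the tallest position of each list. Printed beyond that rule, chosen after their values were seen, are blocks, the parts of the tallest cluster, the other clusters beyond 2-fold and the uppermost part of the upstream locus. The window, lists and rules were chosen with earlier results of these data known. The ratio code was tested on simulated data. RefSeq (GRCm38.p6) supplied names, lengths and start sequences only. Python 3.11.15, numpy 2.4.6, pandas 2.3.3, scipy 1.17.1, matplotlib 3.10.9 and biopython 1.88 were used.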

Additional observations from a re-analysis of the deposited data

Results flagged for a closer look

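The log2 share ratios of the proteins pointed in opposite directions for 6 of the contrasts computed between fractions. Each contrast has 1 pooled list per protein and fraction, so the difference was not tested. For the window, chromatin over cytoplasm was 0.88 in SRSF3 and -0.49 in SRSF7, and chromatin over nucleoplasm was 0.12 in SRSF3 and -1.18 in SRSF7. For the Snrpn locus, chromatin over cytoplasm was 0.90 in SRSF3 and -0.67 in SRSF7, and chromatin over nucleoplasm was 0.14 in SRSF3 and -1.26 in SRSF7. For the upstream segment, the order was turned, with chromatin over cytoplasm at -1.69 in SRSF3 and 2.09 in SRSF7, and nucleoplasm over cytoplasm at -2.20 in SRSF3 and 2.61 in SRSF7. The upstream SRSF3 values rest on 32, 4 and 15 cDNAs. For the window and the locus, the SRSF3 values turned to the other side when each listed position was counted as 1. In the window SRSF7 chromatin over cytoplasm turned as well, to 0.15, against -1.31 in SRSF3. That contrast thus still pointed in opposite directions. With mitochondrial cDNAs and those of the 10 highest loci left out, SRSF3 chromatin over nucleoplasm was -0.29 in the window and -0.27 in the locus, on the same side as SRSF7 at -0.92 and -1.002.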

How the results depend on the processing

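Values are log2 share ratios, with the window first and the Snrpn locus second where a pair is given. With positions counted, SRSF3 chromatin over cytoplasm was -1.31 and -1.29, SRSF3 chromatin over nucleoplasm -1.30 and -1.28, and SRSF3 over SRSF7 in chromatin -1.45 and -1.20, all in the other direction. SRSF7 chromatin over cytoplasm turned to 0.15 in the window, and SRSF7 chromatin over nucleoplasm fell short of 2-fold at -0.21 and -0.27. In the upstream segment SRSF3 chromatin over cytoplasm passed 2-fold at -2.68, and SRSF3 over SRSF7 in cytoplasm no longer did at -1.61. Leaving out mitochondrial cDNAs and those of the 10 highest loci, SRSF3 chromatin over nucleoplasm turned to -0.29 and -0.27, SRSF7 chromatin over nucleoplasm fell short of 2-fold at -0.92 and -1.002, and the upstream SRSF3 chromatin over cytoplasm ratio passed it at -2.39. The cause of these changes was not tested.

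With positions of at least 3 cDNAs, directions held and most ratios passed 2-fold. SRSF3 chromatin over cytoplasm was 2.86 and 2.86, chromatin over nucleoplasm 1.49 and 1.51, and nucleoplasm over cytoplasm 1.37 and 1.35. SRSF7 chromatin over cytoplasm was -1.39 and -1.45. SRSF3 over SRSF7 in chromatin was 2.39 and 2.46, in nucleoplasm -1.44 and -1.42, and in cytoplasm -1.86 and -1.84. Upstream, SRSF7 chromatin over cytoplasm fell short at 1.06. With at least 6 cDNAs the SRSF3 ratios, in the same order, were 4.02 and 4.02, 2.65 and 2.65, and 1.37 and 1.37. SRSF7 chromatin over cytoplasm was -1.65 and -1.64, and nucleoplasm over cytoplasm 1.64 and 1.63. Across proteins chromatin gave 3.84 and 3.83, nucleoplasm -2.10 and -2.08, and cytoplasm -1.83 and -1.82. Upstream, SRSF7 nucleoplasm over cytoplasm fell short at 2.03. The other upstream ratios that involve a list with no position left gave no value under these minimums.

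Calls were summed over the 9 list pairs, so the same locus or cluster can count more than once. Of 16 locus comparisons 6 were beyond 2-fold, and 13 of 33 when loci were joined at 1000 nt. Of 156 cluster comparisons 19 were beyond 2-fold. Under a minimum of 3 cDNAs per position this became 40 of 86, and 18 of 97 clusters were then listed in every SRSF7 fraction. Shares over the series are given above by pair and were not pooled for these sums. Sharing is given in the order SRSF3 cytoplasm near SRSF3 chromatin, SRSF7 cytoplasm near SRSF7 chromatin, then SRSF7 near SRSF3 in chromatin, nucleoplasm and cytoplasm. It was 83.7%, 26.0%, 64.1%, 31.6% and 22.7% on the same nucleotide, and 96.3%, 31.4%, 90.3%, 51.9% and 28.9% with at least 3 cDNAs in both lists. Within 10 nt, SRSF7 cytoplasm near SRSF7 chromatin was 78.0%, and SRSF7 near SRSF3 was 66.5% in nucleoplasm and 68.9% in cytoplasm. The other settings kept counts within 1.5 times. No paired analysis was possible because replicates were pooled before deposit, and leaving out a replicate was not possible for the same reason. Depth limits what is listed, and low positions in the smaller lists are the least certain.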
